A study of Homo sapiens with 8 samples.

Results

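The genes described here are 10 genes of transsulfuration, glutathione synthesis and the steps around them, CBS, CTH, GCLC, GCLM, GSS, GSR, GPX4, MPST, ETHE1 and SQOR. They were chosen by name, with earlier results of these data known. All 10 were matched by Ensembl identifier to 1 gene each among the 57500 genes of the count table. RNAseq was performed on 8 libraries of HEK293T cells, a human embryonic kidney line with the large T antigen of SV40, grown with serum and antibiotics. In 4 of them the cells had received DZNep at 100 µM over 48 h, and the other 4 were vehicle controls (Control), with replicates numbered 1 to 4 in each group. DZNep, or 3-deazaneplanocin A, resembles adenosine and blocks AHCY, the enzyme that releases homocysteine from S-adenosylhomocysteine. The data describe a single cell line at a single dose and time. The sample labels name DMEM as the medium, while the methods of the study name RPMI.

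Transsulfuration carries the sulfur of homocysteine to cysteine. CBS joins homocysteine to serine to form cystathionine, and CTH cleaves cystathionine to release cysteine. Cysteine, glutamate and glycine are then assembled into glutathione, the main low-molecular-weight thiol of the cell, by glutamate-cysteine ligase (the catalytic subunit GCLC with the modifier subunit GCLM) and by glutathione synthetase (GSS). GSR returns oxidized glutathione to its reduced form, and the selenoprotein GPX4 spends glutathione to reduce lipid peroxides in membranes. MPST, SQOR and ETHE1 handle sulfane sulfur and hydrogen sulfide, which CBS and CTH can also produce. The list is therefore wider than synthesis alone.

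Promoter sequences were taken from the RefSeq table for GRCh38.p14, which covers 250 bases before to 50 bases after each start site and has entries for 7 of the 10 genes (not GSS, GSR and MPST). Those of GCLM and GCLC, whose count ratio differed between the groups, and that of CTH are shown up to the edge of the annotated exons, 5′ to 3′ on the strand of the gene. Capitals mark a match to the core of the antioxidant response element, TGACNNNGC on either strand.
GCLM (chr1:93909456-93909680, minus strand): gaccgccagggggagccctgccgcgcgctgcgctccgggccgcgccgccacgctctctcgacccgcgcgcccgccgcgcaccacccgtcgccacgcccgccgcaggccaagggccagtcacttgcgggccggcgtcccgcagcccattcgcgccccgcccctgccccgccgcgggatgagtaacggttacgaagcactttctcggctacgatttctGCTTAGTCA
GCLC (chr6:53545102-53545351, minus strand): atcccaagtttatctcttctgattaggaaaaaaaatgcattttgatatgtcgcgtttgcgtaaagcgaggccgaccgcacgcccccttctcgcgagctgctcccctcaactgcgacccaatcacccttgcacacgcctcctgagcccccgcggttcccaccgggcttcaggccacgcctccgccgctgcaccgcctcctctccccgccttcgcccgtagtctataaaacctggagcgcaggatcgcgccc
CTH (chr1:70411018-70411217, plus strand): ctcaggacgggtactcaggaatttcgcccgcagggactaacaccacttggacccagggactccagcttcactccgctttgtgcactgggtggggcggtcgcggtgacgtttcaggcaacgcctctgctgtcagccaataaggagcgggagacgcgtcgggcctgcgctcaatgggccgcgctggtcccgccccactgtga
The match in GCLM lay on the other strand, from 34 to 26 bases before the RefSeq start. Its last base is also the outermost base of the GENCODE exon. The whole windows of GCLC and CTH held none. Sequence farther from the start sites was not searched, so a match there would not have been seen. The 7 genes have 11 promoter windows in that source, and 3 of the genes had a match, each in 1 window (GCLM, CBS and ETHE1). Of the 35116 RefSeq promoters of this length, 13.3% held it, which is a share of single windows and not of genes. The C/EBP-ATF response element, searched as TTGCNTCA on both strands, was found in 3.22% of the promoters and in 0 of the 11 windows of the 7 genes. These are matches of letters only.

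Library totals ranged from 25043058 counts in Control replicate 1 to 44902779 in DZNep replicate 2. Mitochondrial transcripts took 7.76%, 3.02%, 3.16% and 13.7% of the counts in Control replicates 1 to 4, and 7.04%, 4.25%, 4.44% and 10.1% in the DZNep replicates. Replicates 1 and 4 thus held the higher share in both groups. All 7 markers of HEK293 cells fixed for the analysis (neurofilament, keratin, VIM, PAX2 and CDH2 genes) were expressed, with sums of 33853 to 55068 normalized counts in the Control and 42678 to 51896 in the DZNep libraries, and 1 of them was higher and 0 lower at both thresholds given below. The 6 blood markers summed to 169 to 322 and 208 to 610 normalized counts, with HBB at 0 in every library and 0 called, and the 5 hepatocyte markers to 6.17 to 26.9 and 24.2 to 57.4, with ALB and APOB under 10 counts in every library and none tested. The 4 endothelial markers summed to 160 to 187 and 205 to 341, with 2 higher, and the 5 fibroblast markers to 3371 to 6962 and 2833 to 7076, with 1 higher. For all of these marker counts, the shares of all genes tested were 10.6% higher and 13.5% lower at both thresholds.

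Counts of 19171 genes were tested with edgeR's quasi-likelihood test, which included all 10 genes. A gene is said here to have risen or fallen when its adjusted p-value was under 0.05, and to have passed both thresholds when its absolute log2 fold change was also over 1. At both thresholds, 0 of the 10 genes passed, against 24.2% of all genes tested (10.6% higher and 13.5% lower), and DESeq2 also gave 0. By the adjusted p-value alone, 4 of the 10 fell (CTH, GCLM, GSS and MPST), against 21.8% of all genes, and 0 rose, against 19.1%, with 40.8% of all genes in either direction. At an unadjusted p under 0.05, 6 were lower and 1 was higher. The share of all genes at that limit was not computed, but it cannot be under the 40.8% above. The median log2 fold change of the 10 genes was -0.51, from -0.98 to 0.35, while that of all genes tested was -0.03. Without regard to sign, the medians were 0.51 and 0.54. All 4 DZNep libraries were lower than the lowest Control library for 4 of the 10 genes, against 19.4% of all genes, and above them for 1, against 19.5%. Same-numbered libraries deviated together, but Control replicate 1 did so less with DZNep replicate 1 (correlation 0.136) than with DZNep replicate 4 (0.529). The pairing is thus only a hint from the data. In a fit blocked on the number, 7 of the 10 genes were lower (30.2% of all genes) and 2 were higher (28.8%) at an adjusted p-value under 0.05, 9 in either direction against 59.0%. In that fit too, 0 of the 10 passed both thresholds, against 26.0% of all genes (11.7% higher and 14.3% lower). These are bulk samples, in which fewer cells and less RNA per cell cannot be told apart.

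**Figure D1:**
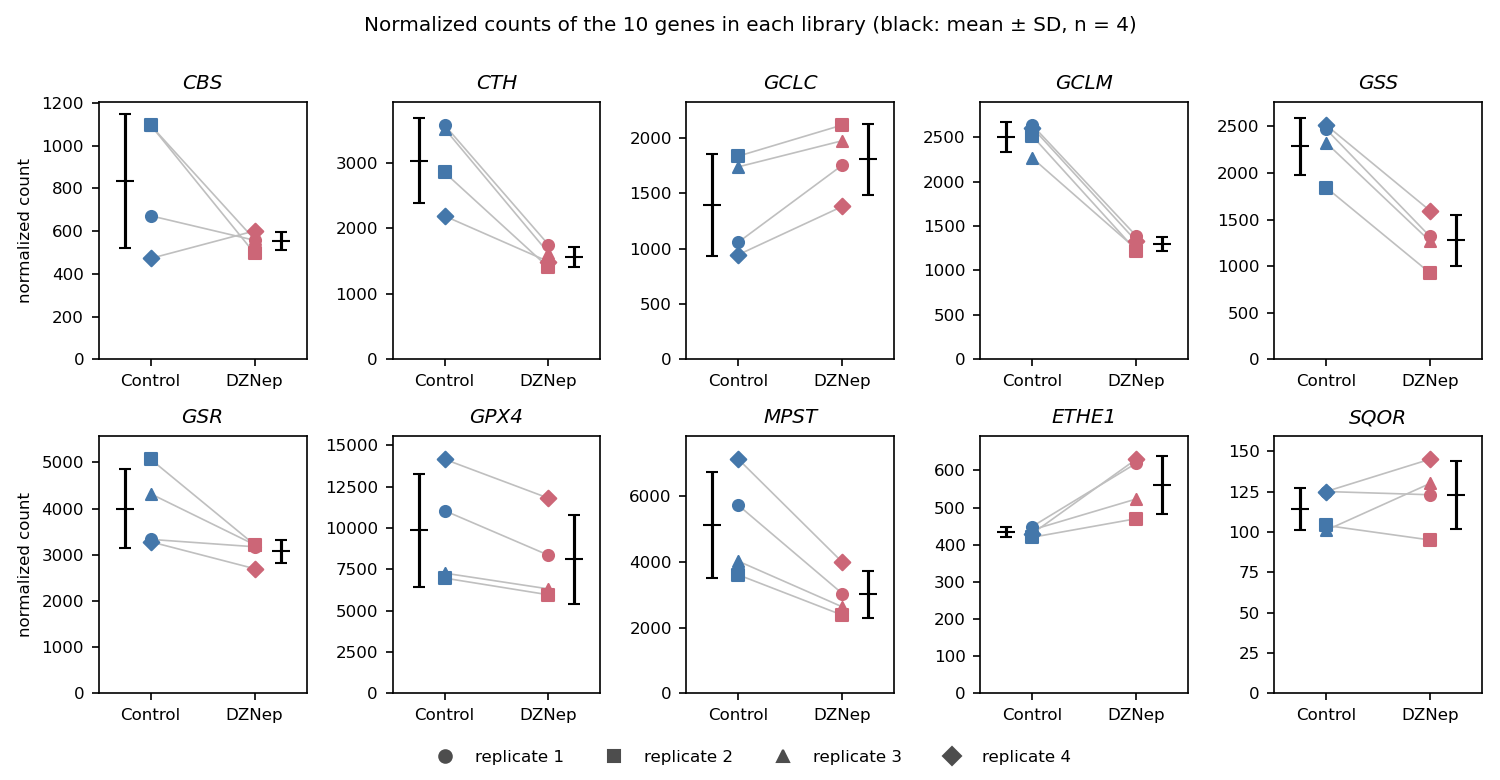
Normalized counts (y axis, from 0) of the 10 genes in the 4 Control and 4 DZNep libraries, with grey lines joining libraries of the same replicate number and black bars for the mean ± SD. The means of CTH, GCLM and GSS fall to about the 50.7%, 50.8% and 54.7% of the Control level that the fit gave. The lines of GCLC and ETHE1 slope upward in 4 of 4 numbers.

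CTH (ENSG00000116761, GRCh38 chromosome 1 from 70411218 to 70439851), which completes transsulfuration, had 3577, 2853, 3523 and 2188 normalized counts in Control replicates 1 to 4 and 1750, 1402, 1623 and 1491 in DZNep replicates 1 to 4. The highest DZNep library lay below the lowest Control library, replicate 4. The mean fell from 3035 ± 653 to 1567 ± 152 (SD, n = 4 each). By edgeR's quasi-likelihood test this was -0.98 ± 0.18 on the log2 scale (estimate ± SE, adjusted p = 0.00167), which left 50.7% of the Control level. Within replicate numbers, the log2 ratios were -1.03, -1.02, -1.12 and -0.55. CTH was under an adjusted p of 0.05 in all 15 alternative fits, with log2 fold changes between -1.12 and -0.90, so that the fold threshold of 1 was passed in 3 of them (without Control replicate 2 or 4 or DZNep replicate 1).

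CBS (ENSG00000160200, chromosome 21 from 43053191 to 43076943), which catalyzes the entry step, had 672, 1097, 1096 and 472 normalized counts in the Control and 557, 496, 561 and 601 in the DZNep libraries. The DZNep libraries lay close together, whereas Control replicates 2 and 3 stood high and Control replicate 4 lay below every DZNep library. The means were 834 ± 314 and 554 ± 43.2 (SD, n = 4 each), and the log2 fold change of -0.62 (standard error 0.25, adjusted p = 0.0759 by edgeR's quasi-likelihood test) did not pass. Blocked on replicate number it was -0.55 with an adjusted p of 0.0252, and without Control replicate 4 it was -0.82 with 0.00734. Within numbers, CBS was lower in 3 and higher in 1, with log2 ratios of -0.27, -1.15, -0.96 and 0.35.

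The CBS counts are uncertain because GRCh38 holds a near-identical copy, CBSL (ENSG00000274276, chromosome 21 from 6444869 to 6467513), which GENCODE marks as an artifact. The canonical transcript of CBS and that of the copy are each 2495 bases long and differ at 1 base. Of 2346 windows of 150 bases, the read length, 6.39% of those of CBS were not found in the copy, and a read in the others maps to both genes unless its mate lies outside them. The copy had 296, 643, 552 and 191 normalized counts in the Control and 275, 301, 309 and 298 in the DZNep libraries, the same order of the Control libraries as in CBS. With both counts summed before the fit, the log2 fold change was -0.59 (adjusted p = 0.111), and with the block as well it was -0.50 (0.0418).

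GCLM (ENSG00000023909, chromosome 1 from 93885199 to 93909456), the modifier subunit of glutamate-cysteine ligase, had 2638, 2515, 2267 and 2610 normalized counts in the Control and 1390, 1224, 1242 and 1330 in the DZNep libraries. Both groups were tight, with coefficients of variation of 6.72% and 5.99%, and did not overlap. The mean fell from 2507 ± 168 to 1297 ± 77.7 (SD, n = 4 each), which was -0.98 ± 0.13 on the log2 scale (estimate ± SE, adjusted p = 0.000231). All 15 alternative fits stayed under an adjusted p of 0.05, with log2 fold changes from -1.03 to -0.90.

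GCLC (ENSG00000001084, chromosome 6 from 53497341 to 53616970), the catalytic subunit of the same enzyme, had 1058, 1836, 1739 and 945 normalized counts in the Control and 1754, 2117, 1975 and 1381 in the DZNep libraries. The groups overlapped, since Control replicates 2 and 3 stood above DZNep replicate 4, but within each number the DZNep library was the higher. As in CBS, Control replicates 1 and 4, which held the higher share of mitochondrial transcripts, were the lowest Control libraries, and the part of that share in the values was not tested. The means were 1395 ± 458 and 1807 ± 320 (SD, n = 4 each), which gave 0.35 ± 0.24 on the log2 scale (estimate ± SE, 95% confidence interval -0.19 to 0.88, adjusted p = 0.277). The fit blocked on replicate number gave 0.39 ± 0.13 (adjusted p = 0.0159). Of the exonic bases of GCLC, 9.68% also belong to exons of other genes, among them an antisense RNA, GCLC-AS1, and the sources used here do not give whether strand was used in counting.

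The ratio of both subunits needs no scaling between libraries and was tested by itself. The log2 of GCLC over GCLM counts (0.5 added to each) was -1.32, -0.45, -0.38 and -1.46 in Control replicates 1 to 4 and 0.34, 0.79, 0.67 and 0.06 in the DZNep replicates. GCLM had more counts than GCLC in every Control library and fewer in every DZNep library. The mean log2 ratio rose from -0.90 ± 0.57 to 0.46 ± 0.33 (SD, n = 4 each), a difference of 1.37 or 2.58-fold (p = 0.0286 by an exact two-sided permutation test, the lowest that 70 splits allow). This test takes the libraries as unpaired, and both subunits are among genes chosen with earlier results of these data known. Within numbers, the differences were 1.65, 1.24, 1.05 and 1.52, positive in 4 of 4, and the paired exact sign-flip test gave p = 0.125, the smallest that 4 pairs allow, so that it could not pass. A change of the ratio shows unequal change of the subunits, and counts are not corrected for transcript length.

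**Figure D2:**
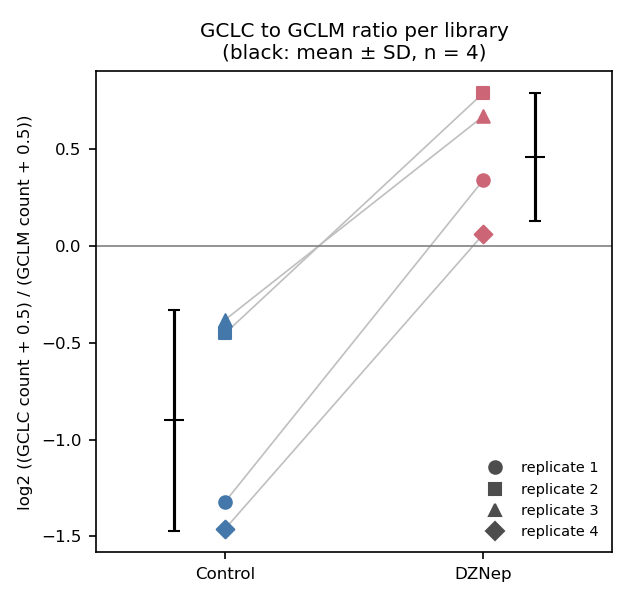
Log2 of GCLC counts over GCLM counts (y axis, 0.5 added to each count) in each library, with the mean ± SD in black and grey lines joining the same replicate number. The 4 Control libraries sit between -1.46 and -0.38 and the 4 DZNep libraries between 0.06 and 0.79.

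GSS (ENSG00000100983, chromosome 20 from 34928432 to 34956027), which adds glycine in the last step of glutathione synthesis, had 2470, 1844, 2325 and 2515 normalized counts in the Control and 1318, 926, 1267 and 1595 in the DZNep libraries. The groups did not overlap, and replicate 2 was the lowest and replicate 4 the highest library in each. The mean fell from 2288 ± 307 to 1277 ± 275 (SD, n = 4 each), which was -0.87 ± 0.19 on the log2 scale (estimate ± SE, adjusted p = 0.00409). The ratios within numbers lay between -0.99 and -0.66 on the log2 scale. GSS, too, was under an adjusted p of 0.05 in all 15 alternative fits.

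GSR (ENSG00000104687, chromosome 8 from 30678066 to 30727846), the NADPH-dependent reductase of glutathione, had 3334, 5069, 4321 and 3282 normalized counts in the Control and 3174, 3219, 3219 and 2700 in the DZNep libraries. All 4 DZNep libraries were lower than the lowest Control library, but Control replicates 1 and 4 were only slightly above DZNep replicates 1 to 3. The means were 4002 ± 857 and 3078 ± 253 (SD, n = 4 each), and the log2 fold change of -0.41 (95% confidence interval -0.79 to -0.02) had an adjusted p of 0.084. This became 0.0127 under the block and 0.0424 without Control replicate 4.

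GPX4 (ENSG00000167468, chromosome 19 from 1103982 to 1106791), which guards membranes against lipid peroxidation, had 11056, 6976, 7276 and 14164 normalized counts in the Control and 8360, 5964, 6321 and 11809 in the DZNep libraries. Replicates 4 and 1 were the highest in both groups, as they were in the share of mitochondrial transcripts, and their part in the GPX4 values was not tested. The spread within the groups (9868 ± 3413 and 8113 ± 2680, SD, n = 4 each) was wider than the difference between them. On the log2 scale it came to -0.31 (95% confidence interval -0.95 to 0.32, adjusted p = 0.415). Within numbers GPX4 was lower in 4 of 4, by 0.40, 0.23, 0.20 and 0.26 on the log2 scale, and the block gave -0.30 with an adjusted p of 0.0291.

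MPST (ENSG00000128309, chromosome 22 from 37019635 to 37029821), which transfers sulfur from 3-mercaptopyruvate, had 5710, 3598, 4013 and 7108 normalized counts in the Control and 3031, 2377, 2627 and 3984 in the DZNep libraries. Replicates 4 and 1 were again the highest of each group, as for GPX4, and DZNep replicate 4 lay above Control replicate 2. The mean fell from 5107 ± 1617 to 3005 ± 706 (SD, n = 4 each), which was -0.79 ± 0.25 on the log2 scale (estimate ± SE, adjusted p = 0.0257). The call was lost without Control replicate 1 (0.0619) or 4 (0.0551) and without DZNep replicate 1 (0.0672), 2 (0.076) or 3 (0.0752), while the block gave -0.77 with 3.83e-05. TST, the related sulfurtransferase gene that starts head to head with MPST, fell from a mean of 1234 ± 242 to 480 ± 90.3 normalized counts (SD, n = 4 each), which was -1.39 on the log2 scale (adjusted p = 0.000358). Their annotated exons share 6 bases.

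Neither ETHE1 nor SQOR, which act in mitochondrial sulfide oxidation, passed the adjusted p-value. ETHE1 (ENSG00000105755, chromosome 19 from 43506719 to 43527230), the persulfide dioxygenase, had 449, 420, 440 and 430 normalized counts in the Control and 619, 470, 523 and 630 in the DZNep libraries. Every DZNep library lay above every Control library, and the Control libraries varied by only 2.89%. The means were 434 ± 12.5 and 561 ± 77.2 (SD, n = 4 each), which gave 0.34 ± 0.15 on the log2 scale (estimate ± SE). The adjusted p was 0.0875 by edgeR, 0.0362 by DESeq2 and 0.0432 with the block. Exons of ZNF575 on the opposite strand cover 15.0% of the exonic bases of ETHE1.

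SQOR (ENSG00000137767, chromosome 15 from 45631148 to 45691281), the quinone oxidoreductase that oxidizes sulfide, had 125, 104, 101 and 125 normalized counts in the Control and 123, 95, 130 and 145 in the DZNep libraries. The groups overlapped, with 2 numbers higher and 2 lower. On the log2 scale the difference was 0.09 (95% confidence interval -0.35 to 0.54, adjusted p = 0.744), and the block gave 0.728. Another annotated gene on the same strand covers 30.0% of its exonic bases, and reads there may not have been counted.

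**Figure D3:**
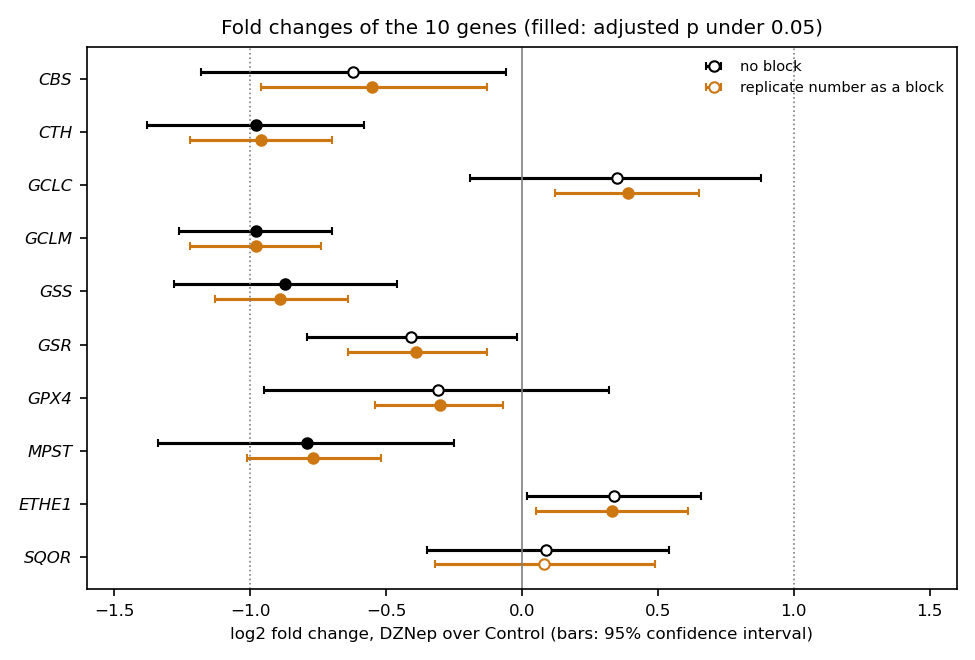
Log2 fold change of DZNep over Control (x axis) for the 10 genes with 95% confidence intervals, in black without and in orange with a block for replicate number, and filled where the adjusted p-value was under 0.05. The estimates hardly move with the block, while the median standard error goes from 0.19 to 0.12, and all 10 estimates lie between the dotted lines at -1 and 1.

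Levels were compared between genes as normalized counts per kilobase of annotated exon. In the Control libraries, GPX4 was the highest with 5363 ± 1855 (SD, n = 4), followed by CTH with 1257 ± 271, GSR with 1111 ± 238 and MPST with 756 ± 239. The ranges of CTH and GSR overlapped, as did those of GSR and MPST. GCLM (462 ± 31.0), GSS (371 ± 49.9) and ETHE1 (273 ± 7.89) came next without overlap between neighbours, and GCLC with 162 ± 53.1 and CBS with 123 ± 46.2 overlapped. SQOR was the lowest at 38.6 ± 4.4. In the DZNep libraries, GSR (855 ± 70.2) stood above CTH (649 ± 63.2) and ETHE1 (353 ± 48.5) above GCLM (239 ± 14.3), each without overlap. GCLM, GCLC (210 ± 37.2) and GSS (207 ± 44.5) overlapped with their neighbours in that order, and CBS (81.6 ± 6.37) and SQOR (41.9 ± 7.12) were again the lowest. The level of CBS leaves out reads shared with its copy, and the annotation used for counting may give other lengths. The lengths take in the exons of all annotated isoforms, which for CBS make 6786 bases against 2495 in its canonical transcript. A shorter length gives a higher level, so the order of the genes, that of CBS included, depends on this choice.

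The genes around these 10 were taken as 9 lists with 120 genes in the table, of which 101 were tested. At both thresholds 5 were higher, against 10.6% of all genes, and 13 were lower, against 13.5%. By the adjusted p-value alone, 19 rose, against 19.1% of all genes, and 25 fell, against 21.8%. The count of 5 higher was 8 without Control replicate 1, 3 or 4. It holds 3 genes of few reads (MAT1A, GSTA2 and ABCC2) that entered the test only through the DZNep libraries, and with at least 10 counts in every library it was 2.

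Upstream of transsulfuration, 7 of 9 methionine cycle genes were tested. At both thresholds 1 was higher (10.6% of all genes) and 1 lower (13.5%), and the median log2 fold change was 0.05. AHCY, the target of DZNep, had an adjusted p of 0.142 at a log2 fold change of -0.30 (0.0443 with the block). MTR, which returns homocysteine to methionine, fell by 1.57 on the log2 scale (adjusted p = 0.00125). MAT1A, the S-adenosylmethionine synthetase best known from liver, had 15.4, 3.57, 1.79 and 17.2 normalized counts in the Control and 175, 163, 202 and 199 in the DZNep libraries, from 2 to 16 raw counts in the Control and 177 to 234 in the DZNep libraries. The log2 fold change was 4.34 (standard error 0.52, adjusted p = 0.000151), but the gene entered the test only through the DZNep libraries, where it is high, and was not tested where at least 10 counts in every library were required. The 2 genes that were not tested had under 10 counts in every library.

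Of 6 carriers that bring cystine or related amino acids into the cytosol, 2 were lower at both thresholds (13.5% of all genes) and 0 higher (10.6%). Their median log2 fold change was -0.48. SLC1A4, a neutral amino acid exchanger, fell from a mean of 1972 ± 615 to 424 ± 94.1 normalized counts (SD, n = 4 each; log2 fold change -2.24, adjusted p = 0.000133). SLC1A1, a glutamate and cysteine transporter, fell from 413 ± 119 to 146 ± 38.1 (log2 fold change -1.52, adjusted p = 0.00121). SLC7A11, the cystine-glutamate antiporter, had 4255, 4435, 4249 and 3285 normalized counts in the Control and 2928, 2852, 3496 and 2360 in the DZNep libraries. Among the Control libraries, replicate 4 alone lay within the range of the DZNep libraries, and the log2 fold change was -0.51 (adjusted p = 0.0316). That call was lost in 8 of 15 alternative fits, among them those without Control replicate 1 (0.0693), 2 (0.0601) or 3 (0.0719) and without DZNep replicate 1 (0.0943), 2 (0.0791) or 4 (0.0757).

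Of 10 genes for the breakdown of cysteine and sulfide, 9 were tested. At both thresholds 1 was lower (TST, above, against 13.5% of all genes) and 0 higher (10.6%). The count of 1 lower was 2 without Control replicate 2 or DZNep replicate 4. By the adjusted p-value alone 5 fell (21.8% of all genes) and 3 rose (19.1%). Their median was -0.45 on the log2 scale.

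Enzymes that use or break down glutathione also went both ways. Of 23 transferase genes, 22 were in the table and 15 were tested. At both thresholds 3 were lower (13.5% of all genes) and 1 higher (10.6%), with a median log2 fold change of -0.17. GSTZ1, which acts in tyrosine breakdown, fell from a mean of 1768 ± 364 to 315 ± 110 normalized counts (SD, n = 4 each; log2 fold change -2.52, adjusted p = 7.35e-05). The microsomal MGST1 (log2 fold change -1.42, adjusted p = 0.000436) and GSTA4, which detoxifies 4-hydroxynonenal (-1.28, adjusted p = 0.00144), also fell. GSTA2 had 4.62, 1.79, 0.896 and 5.37 normalized counts in the Control and 21.8, 15.3, 27.6 and 22.5 in the DZNep libraries, from 1 to 5 raw counts in the Control and 19 to 32 in the DZNep libraries. The log2 fold change was 2.80 (adjusted p = 0.00145), but the gene entered the test only through the DZNep libraries, was not tested where at least 10 counts in every library were required, and has near-identical relatives, so that it is given as a description. The count of 1 higher became 2 without any one of the Control replicates and 3 without DZNep replicate 2.

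Of 9 tested peroxidase and glutaredoxin genes, 0 passed both thresholds (24.2% of all genes). By the adjusted p-value alone 2 rose (19.1%) and 0 fell (21.8%), while with the block 3 were higher (28.8%) and 3 lower (30.2%). Of 15 tested genes for the breakdown and transport of glutathione, 2 were lower at both thresholds (13.5% of all genes) and 0 higher (10.6%). Their median log2 fold change was -0.33. GGCT, the cyclotransferase that acts on gamma-glutamyl amino acids, fell from a mean of 3886 ± 725 to 1759 ± 432 normalized counts (SD, n = 4 each; log2 fold change -1.17, adjusted p = 0.00139). HAGH, a hydrolase of the glyoxalase system, had a log2 fold change of -1.06 (adjusted p = 0.012) and groups that overlapped. It missed the fold threshold with the block (-0.99), with library totals or limma (-0.96 each), and without Control replicate 1 (-0.97) or 4 (-0.84) or DZNep replicate 2 (-0.97), though its adjusted p stayed under 0.05 in each. CHAC1, a cytosolic glutathione-degrading enzyme, had 4690, 2074, 2461 and 3112 normalized counts in the Control and 3175, 1328, 2111 and 2332 in the DZNep libraries, with overlap. The adjusted p of 0.225 at a log2 fold change of -0.49 became 0.00198 with the block.

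NRF2, encoded by NFE2L2, is the main activator of antioxidant response elements, and KEAP1 holds it in check. NFE2L2 had 1768, 2521, 2480 and 1466 normalized counts in the Control and 2276, 2278, 2168 and 1766 in the DZNep libraries, which overlapped (log2 fold change 0.02, adjusted p = 0.954). KEAP1 rose from a mean of 2465 ± 192 to 4701 ± 303 normalized counts (SD, n = 4 each), without overlap (log2 fold change 0.90, standard error 0.13, adjusted p = 0.00041). The NRF2 list does not hold GCLC, GCLM, GSR or SLC7A11, which are given above. Of its 23 tested genes, 1 was higher at both thresholds (10.6% of all genes) and 0 were lower (13.5%). The 1 was ABCC2 (from 8.41 ± 3.30 to 31.7 ± 17.7 normalized counts, adjusted p = 0.00996). ABCC2 entered the test only through the DZNep libraries, and the count of 1 was 0 with at least 10 counts in every library. It was 4 without Control replicate 4, 3 without Control replicate 1 or 3, and 2 without Control replicate 2 or DZNep replicate 1, 3 or 4. By the adjusted p-value alone 6 rose (19.1% of all genes) and 2 fell (21.8%), and the median log2 fold change was 0.25.

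GPX4 is a selenoprotein, and 7 genes of selenocysteine insertion were tested. At both thresholds, 1 was higher (10.6% of all genes) and 1 lower (13.5%). By the adjusted p-value alone 3 rose (19.1%) and 1 fell (21.8%), and the median log2 fold change was -0.07. PSTK, the kinase that prepares the selenocysteine tRNA, rose from a mean of 233 ± 49.6 to 772 ± 98.3 normalized counts (SD, n = 4 each; log2 fold change 1.71, adjusted p = 9.11e-05). EEFSEC, the elongation factor that delivers this tRNA, fell from 1585 ± 262 to 484 ± 63.1 (log2 fold change -1.74, adjusted p = 5.58e-05). In both genes the groups did not overlap.

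CTH, SLC7A11 and CHAC1 are known targets of ATF4, the transcription factor of the amino acid stress response. Of 10 genes of ATF4 and CHOP, 3 were lower (13.5% of all genes) and 1 was higher (10.6%) at both thresholds, with a median log2 fold change of -0.48. The transcript of ATF4 itself, named after its values were seen, had means of 38179 ± 10723 and 38030 ± 7101 normalized counts (SD, n = 4 each; log2 fold change -0.03, adjusted p = 0.92). DDIT3, which encodes CHOP, fell from a mean of 1112 ± 422 to 185 ± 41.1 normalized counts (SD, n = 4 each; log2 fold change -2.61, adjusted p = 0.00013). TRIB3, a pseudokinase induced by ATF4, had a log2 fold change of -1.76 (adjusted p = 0.00113). CEBPB had -1.18 with groups that overlapped and an adjusted p of 0.0304, lost without Control replicate 1 (0.0887) or 4 (0.0512) and without DZNep replicate 1 (0.0688), 2 (0.0601) or 3 (0.0779). DDIT4, an inhibitor of mTORC1 signaling, rose from 10657 ± 2036 to 22604 ± 3086 (log2 fold change 1.06, adjusted p = 0.00134), and missed the fold threshold without Control replicate 2 (0.98) or 4 (0.97) or DZNep replicate 3 (0.98).

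**Figure D4:**
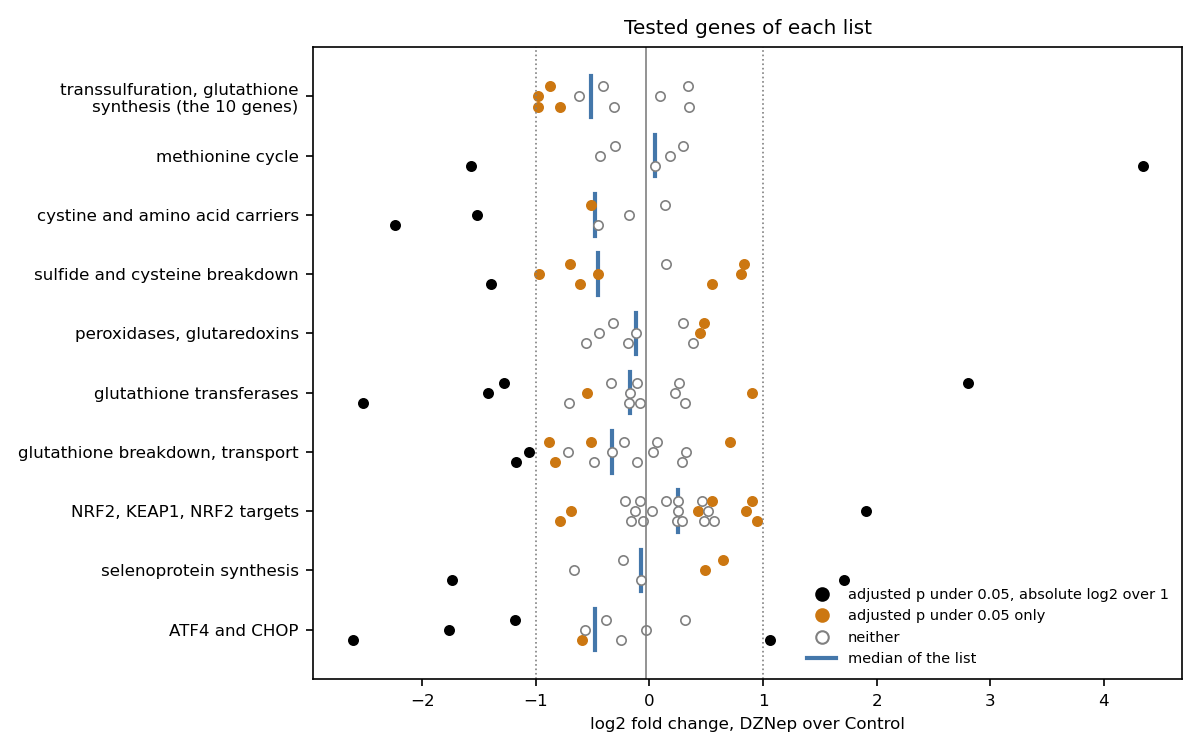
Log2 fold change of DZNep over Control (x axis) of each tested gene, by list, with the median of each list in blue, the median of all genes tested (-0.03) as a grey line, dotted lines at -1 and 1, black points past both thresholds and orange points under an adjusted p of 0.05 only. The 10 genes at the top lie between -0.98 and 0.35, and the other lists hold 5 higher and 13 lower black points, from DDIT3 at -2.61 to MAT1A, which had few Control reads, at 4.34.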

How the data were processed

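RNAseq was measured in 8 libraries, grouped by the treatment and replicate number in the labels. The authors trimmed paired 150 bp reads (Trimmomatic 0.36), mapped them to GRCh38 (STAR 2.5.2b) and counted unique exonic reads per gene (featureCounts, Subread 1.5.2). The authors deposited these counts, and also normalized counts as a signal for 19118 genes, checked to be raw counts over a single size factor for each library. The annotation release and strandedness are not given in the sources used here.

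Symbols came from GENCODE 44. Counts were tested with edgeR 4.0.16 (R 4.3.3), TMM normalization, filterByExpr and Benjamini-Hochberg adjustment over 19171 genes. Every adjusted p-value is from this test unless DESeq2 1.42.0 or limma 3.58.1 is named, and intervals cover 95%. Normalized counts in the text use the deposited size factors. The tests were checked on simulated counts. In the library of least depth, 0 counts allow at most 1.2e-05% of the total, which covers counting error only. Pairs of libraries of a group differed by more than sampling noise (chi-square of at least 28.1 per degree of freedom).

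The correlation of deviations from the group means between same-numbered libraries was 0.136, 0.492, 0.429 and 0.673 for replicates 1 to 4, all above 0.1, the limit set for treating the numbers as pairs. The pairing is a hint from the data and not from the labels: Control replicate 1 correlated more with DZNep replicate 4 (0.529) than with its own number, and replicates 2 and 3 also correlated across numbers (0.398 and 0.343). The study names the replicates biological, while the labels do not say that they were separate cultures, so p-values measure the spread between these libraries. Lists were written from general knowledge, and the members and lists were chosen with earlier results of these data known. Genes named are the 10, CBSL, AHCY, NFE2L2, KEAP1, SLC7A11, CHAC1 and up to 3 genes per list and direction past both thresholds with the highest absolute log2 fold change. The rule for genes of like profile named none, since none of the 10 passed both thresholds. CBSL was identified by its RefSeq position and synonym. Alternatives were other normalizations, filters and tests, the replicate block, and leaving out each library. Summing CBS and CBSL with the block was chosen after seeing the data. The proteomics was not analysed here.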

Additional observations from a re-analysis of the deposited data

Results flagged for a closer look

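Among 70 groups of 4 libraries tested for a library far from the others (34 genes and the subunit ratio, in each group), 2 had one, where chance gives about 1 in 20. GSR in DZNep replicate 4 had 2700 normalized counts, while the other DZNep libraries lay between 3174 and 3219. SLC7A11 in Control replicate 4 had 3285 normalized counts, while the other Control libraries lay between 4249 and 4435.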

How the results depend on the processing

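All of the log2 fold changes of the 10 genes kept their sign in every alternative fit, and those of CTH, GCLM and GSS stayed under an adjusted p of 0.05 in each. With the replicate number as a block, 9 of the 10 genes were under an adjusted p of 0.05, against 4 without it, adding CBS, GCLC, GSR, GPX4 and ETHE1, and with each library left out 3 to 5 were. At both thresholds, the number of the 10 genes that were lower was 0 with every library and ranged from 0 to 1 with each library left out (CTH without Control replicate 2 or 4 or DZNep replicate 1, and GCLM without Control replicate 3), and it was 4 without a limit on the fold change. Without that limit, 19 genes of the other lists were higher and 25 lower, and 3656 of all genes were higher and 4171 lower. The number of genes of the other lists that were higher, 5 in the test as reported, was 10 with no filter on low counts, 2 with at least 10 counts in every library and between 5 and 8 with each library left out (8 without Control replicate 1, 3 or 4), and 1141 of all genes were higher with at least 10 counts in every library, where fewer genes were tested. The GCLC to GCLM ratio differed by 1.18 to 1.54 with each library left out, and the mean difference within replicate numbers as the replicate block was 1.37 with an exact sign-flip p of 0.125, the smallest that 4 pairs allow. NFE2L2 turned to -0.06 without Control replicate 1, -0.12 without Control replicate 4, -0.00 without DZNep replicate 1 and -0.01 without DZNep replicate 2, within a range of -0.12 to 0.12 over the libraries left out. The cause of these shifts was not tested. SQOR, at 81 to 150 counts per library, was the gene of least depth among the 10.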
